A study of Mus musculus with 11 samples.

Results

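The motile cilia genes were followed in whole-ovary RNA of wild-type mice at 3 ages. They were taken by name from the deposited count table: protein-coding genes whose symbol is Dnah, Dnaic, Dnaaf, Rsph, Tekt or Cfap followed by a number and at most 1 letter, with Foxj1, Dynlrb2, Tmem212, Ccdc153, Spag6l and Mcidas added. This gave 66 genes of 54232 in the table, of which 22055 are protein-coding. They comprised 26 Cfap genes, 15 Dnah genes, 8 Rsph genes, 5 Tekt genes, 4 Dnaaf genes, 2 Dnaic genes and the 6 genes given by name. The rule itself uses names alone.

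Bulk libraries were made from ovaries of animals labelled 2 months (4 libraries), 18 months (4 libraries) and 24 months (3 libraries), all of the genotype WT, with no treatment named. The library names of the 24 month group carry 22 months and those of the 2 month group carry 8 weeks. The labels do not say whether each library is 1 animal, whether ovaries were pooled, at which stage of the cycle they were taken or whether oviduct was trimmed away.

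Motile cilia beat, and they move fluid, eggs or mucus over the surface of multiciliated epithelia such as that of the oviduct. Their core, the axoneme, is a ring of doublet microtubules around a central pair, on which rows of dynein arms walk. Radial spokes reach from the doublets toward the centre, and nexin links join neighbouring doublets. The heavy chains (Dnah) are the motors, the intermediate chains (Dnaic) dock the outer arms, and Dnaaf proteins assemble the arms in the cytoplasm before transport. Tektins line the doublets, Rsph proteins build the spokes, and the Cfap symbol covers a mixed set of cilium and flagellum proteins. Upstream, the nuclear protein Mcidas starts the multiciliated programme and the forkhead factor Foxj1, with factors of the RFX family, switches on many axoneme genes. Sperm tails hold the same core, and some members, such as Dnah8, Dnah17, Rsph6a and Tekt5, are best known there.

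RFX factors bind a paired site called the X-box, and the letters of 1 arm of it, GTTGCC, were looked for on both strands in RefSeq promoter windows of the build GRCm38.p6, which reach from 250 bases before to 50 bases after a gene's start. Windows were found for 54 of the 66 genes. Foxj1, Rsph4a, Cfap157, Cfap53, Cfap54, Cfap65, Cfap73, Cfap97, Dnaaf1, Dnah3, Rsph1 and Rsph10b had no window in the table used. Of the 54, 22 (40.7%) held the arm in a window, beside 14.1% of all 27025 genes with windows. The share was 14 of 35 (40.0%) among the members that stood at least 4 times higher in 1 sample, 24 month replicate 3, than in any other (described below), and 8 of 19 (42.1%) among the others, so the letters were about equally frequent in both. The forkhead letters GTAAACA were in windows of 4 of the 54 (7.41%), beside 4.05% of all genes. They were in 1 of the 35 members at least 4 times higher in that sample (2.86%) and in 3 of the 19 others (15.8%). In the windows shown, no match of 1 motif overlaps one of the other. A match is a string of letters and not a tested site.

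The following 5 windows show what these matches look like. The first 4 belong to genes at least 4 times higher in 24 month replicate 3 than in any other sample. Cfap20 is shown as a gene with the same letters whose level was about equal in all samples, at 1.1 times the next highest in that replicate. Each is read 5′ to 3′ in the direction of its gene, and capitals mark the matches.
Cfap161: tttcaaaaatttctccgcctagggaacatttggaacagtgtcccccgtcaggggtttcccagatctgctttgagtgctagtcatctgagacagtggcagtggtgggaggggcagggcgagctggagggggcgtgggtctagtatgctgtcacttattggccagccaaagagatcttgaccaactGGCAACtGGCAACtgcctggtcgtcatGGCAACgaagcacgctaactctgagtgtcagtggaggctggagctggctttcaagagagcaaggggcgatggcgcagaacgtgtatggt
Cfap44: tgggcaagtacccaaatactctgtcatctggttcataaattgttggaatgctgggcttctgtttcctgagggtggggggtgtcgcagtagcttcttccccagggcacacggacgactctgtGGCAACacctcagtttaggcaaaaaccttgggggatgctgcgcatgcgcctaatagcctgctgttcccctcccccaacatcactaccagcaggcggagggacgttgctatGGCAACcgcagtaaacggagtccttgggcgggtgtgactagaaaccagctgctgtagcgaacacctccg
Dynlrb2: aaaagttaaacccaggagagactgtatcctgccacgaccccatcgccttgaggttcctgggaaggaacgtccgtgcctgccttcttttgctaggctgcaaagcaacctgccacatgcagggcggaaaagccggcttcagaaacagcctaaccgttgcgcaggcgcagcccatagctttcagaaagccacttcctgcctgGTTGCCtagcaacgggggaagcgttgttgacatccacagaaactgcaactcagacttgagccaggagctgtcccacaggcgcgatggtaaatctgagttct
Ccdc153: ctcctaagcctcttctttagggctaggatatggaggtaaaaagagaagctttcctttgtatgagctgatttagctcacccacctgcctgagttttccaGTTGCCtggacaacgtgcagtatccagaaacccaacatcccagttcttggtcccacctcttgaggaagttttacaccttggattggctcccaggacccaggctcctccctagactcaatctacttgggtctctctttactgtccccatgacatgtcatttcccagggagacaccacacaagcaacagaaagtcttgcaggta
Cfap20: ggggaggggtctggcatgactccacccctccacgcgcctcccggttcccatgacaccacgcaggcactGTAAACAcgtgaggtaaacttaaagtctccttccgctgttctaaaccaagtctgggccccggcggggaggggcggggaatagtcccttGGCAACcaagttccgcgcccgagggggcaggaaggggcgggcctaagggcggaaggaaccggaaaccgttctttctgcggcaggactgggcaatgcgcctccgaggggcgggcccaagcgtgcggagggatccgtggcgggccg
The Cfap161 window lies at chr7:83794790-83795089 on the minus strand and holds 3 such arms, beginning at -66, -59 and -39 relative to the start. That of Cfap44, at chr16:44394549-44394848 on the plus strand, holds 2, at -129 and -19. For Dynlrb2 the window lies at chr8:116504765-116505064 on the plus strand, with an arm at -51. The Ccdc153 window, at chr9:44240427-44240726 on the plus strand, has its arm at -152. The Cfap20 window lies at chr8:95434820-95435119 on the minus strand and holds an arm at -94 and the forkhead letters at -182.

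Before the levels are given, 3 facts about the libraries matter. Replicates 3 and 4 of 18 months had 5231724 and 8892915 counts in all, and the other 9 libraries 26061630 to 33407509. The counts of these last 2 libraries differed by no more than about counting noise (chi-square 1.10 per gene, beside 28.7 for the next closest pair), so they were summed and counted as 1 sample, which leaves 4, 3 and 3 samples. Last, 24 month replicate 3, set apart by the rule beforehand, stood apart from every other library in the genes described here. It is given on its own throughout and each comparison is given with and without it. With no word in the labels on separate animals, a p-value here measures the spread between samples and no more, and that spread may be technical. In bulk RNA, fewer cells of a type and less RNA per cell cannot be told apart. Foxl2, a transcription factor of granulosa cells named after its values were seen, lay between 138 and 228 CPM in the 10 samples. It was thus present in each, but other granulosa markers did not stay level. Of a list of 8 that holds Foxl2, 4 fell from 2 to 24 months (Amh, Fshr, Esr2 and Nr5a2), beside 15.8% of all genes tested. Levels are CPM, counts scaled to the library size with TMM factors.

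Motile cilia genes took 0.0278% to 0.0353% of all counts in the 2 month libraries. Their share was 0.0299%, 0.0421%, 0.0564% and 0.0548% in the 18 month libraries. In the 24 month libraries it was 0.0380%, 0.0658% and 0.261%, in replicate order. The summed level of the 66 genes was 341, 350.2, 322 and 306 CPM at 2 months, 312, 425 and 519 CPM at 18 months, and 369, 611 and 2340 CPM at 24 months. The first 18 month sample lay within the 2 month range, the first 24 month sample lay slightly above it, and the third 24 month sample was far above all others.

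The same shape recurred gene by gene. Of the 66 genes, 58 had their highest level in 24 month replicate 3, beside 19.1% of all genes tested. In 43 of them that sample was at least 4 times the highest of the other 9 samples, beside 1.63% of all genes tested. These 43 were picked by their level in that sample, so what follows on them is a description. Dnah1 stood just inside the limit at 4.01 times, and Rsph1 (3.41 times) and Cfap73 (3.40 times) just outside.

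Summed over the 43, the level was 49.8, 50.7, 30.1 and 34.9 CPM at 2 months. At 18 months it was 39.6, 100.2 and 194 CPM, and at 24 months 52.4, 212 and 1761 CPM. The first sample of each older age thus lay near the 2 month samples, the others lay above all of them, and 24 month replicate 3 was highest by a wide margin. The ratio of replicate 3 to replicate 2 at 24 months had a median of 8.90 over the 43, from 4.01 for Dnah1 to 27.6 for Dnah5, and it lay between 6 and 12 for 31 of them. After replicate 3, the next highest sample was 24 month replicate 2 for 24 genes and the summed 18 month sample for 16.

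Among the 43, 24 month replicate 2 was above both 18 month replicate 1 and 24 month replicate 1 for all 43, the summed 18 month sample for 42 and 18 month replicate 2 for 36. In 18 month replicate 1, 27 of the 43 lay within the range of the 2 month samples, 8 above it and 8 below it. In 24 month replicate 1, 24 lay within that range, 15 above it and 4 below it. For these genes the samples of each older age differed more among themselves than the 2 month samples did. At 24 months this follows from picking the 43 by their level in replicate 3. The other 23 genes summed to 271 to 299.5 CPM at 2 months, 273, 325 and 325 CPM at 18 months, and 317, 399 and 579 CPM at 24 months.

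**Figure D1:**
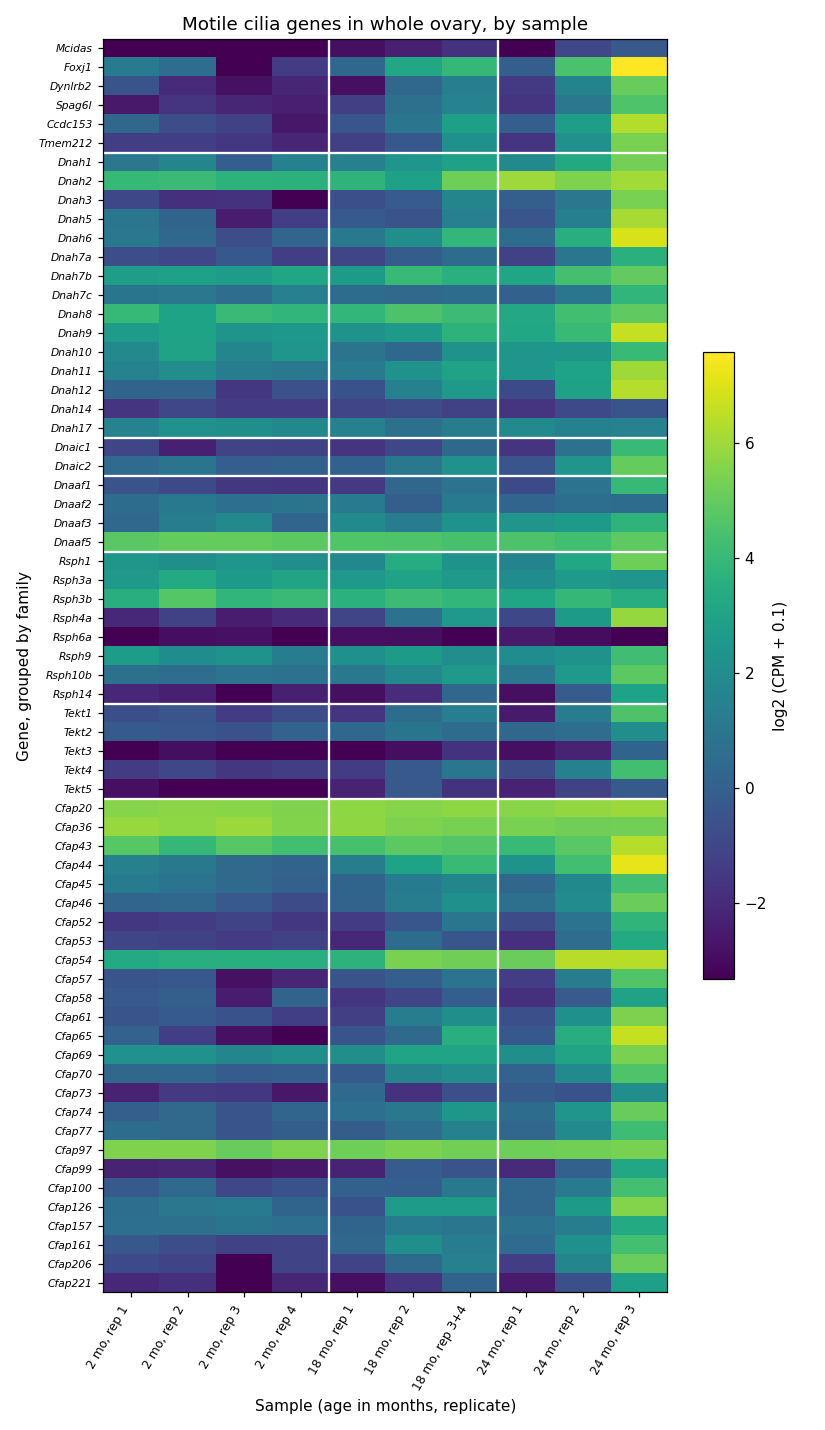
Level of each of the 66 motile cilia genes (rows, grouped by family) in the 10 samples (columns), coloured by log2 of CPM plus 0.1. The column of 24 month replicate 3 holds the highest level of 58 genes, and of the 43 genes that stand out most there, 27 in the first 18 month column and 24 in the first 24 month column lie within the 2 month range.

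Foxj1 (ENSMUSG00000034227, chromosome 11 at 116330704 to 116335399, minus strand, coordinates as in the mm10 table) followed the common shape. It stood at 2.07, 1.37, 0 and 0.274 CPM at 2 months, at 1.13, 8.89 and 15.1 CPM at 18 months, and at 0.896, 21.4 and 190 CPM at 24 months. The older ages overlapped the 2 month samples through the first sample of each. It rose by 6.23 on the log2 scale from 2 to 24 months (SE 1.64, edgeR adjusted p = 0.0182). Without 24 month replicate 3 the log2 difference was 3.59 (SE 1.39, adjusted p = 0.0935) and no longer passed.

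Mcidas, the inducer of the programme, was too low to be tested. It had 0 counts in the 4 samples of 2 months, 1, 3 and 3 counts in the 18 month samples, and 0, 14 and 25 counts in the 24 month samples. Set against a floor of 3 counts over the 2 month group, its summed level at 24 months was 16.0-fold higher, and 8.93-fold higher without replicate 3. The floor allows for counting error at 2 months and not for that of the 24 month counts. Without replicate 3 all 14 counts of that age lay in replicate 2.

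Dynlrb2, a light chain of cytoplasmic and ciliary dynein, was at 0.621, 0.155, 0.0406 and 0.122 CPM at 2 months. It was at 0.0354, 1.20 and 2.45 CPM at 18 months and at 0.261, 2.87 and 33.2 CPM at 24 months. Tmem212, a membrane protein known as a marker of ciliated ependymal cells, went from 0.122 to 0.311 CPM at 2 months to 0.319, 0.694 and 4.31 CPM at 18 months and 0.224, 4.44 and 42.0 CPM at 24 months. Ccdc153, a protein of the nexin link, was at 0.0609 to 1.10 CPM at 2 months, at 0.638, 1.83 and 7.03 CPM at 18 months and at 0.858, 6.74 and 78.6 CPM at 24 months. In all 3 genes 24 month replicates 2 and 3 were above every 2 month sample and replicate 1 was not.

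Spag6l, a central pair protein with a near-identical relative, differed from them in that no 18 or 24 month sample overlapped the 2 month samples. Its levels were 0.0690, 0.218, 0.122 and 0.0913 CPM at 2 months, 0.319, 1.51 and 2.78 CPM at 18 months, and 0.224, 1.96 and 23.8 CPM at 24 months. It rose by 6.06 on the log2 scale from 2 to 24 months (SE 1.42, adjusted p = 0.0119), and without replicate 3 the difference was 3.12 (SE 0.967, adjusted p = 0.0503). Dynlrb2, Tmem212 and Ccdc153 also rose at 24 months, by 5.66 (SE 1.59), 5.96 (SE 1.499) and 5.85 (SE 1.49), with adjusted p from 0.0156 to 0.0234. Without replicate 3 none of these 3 passed (adjusted p 0.0736 to 0.145).

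The 15 heavy chain genes summed to 54.2 to 65.3 CPM at 2 months, to 53.5, 75.8 and 130 CPM at 18 months and to 113, 153 and 689 CPM at 24 months. From 2 to 24 months 10 of the 15 rose, beside 19.2% of all genes tested, and without replicate 3 only Dnah2 did, beside 11.9%. Dnah5, a motor of the outer arm, had the widest gap of any member between replicate 3 and the rest. It was at 1.83, 1.03, 0.0812 and 0.304 CPM at 2 months, at 0.744, 0.599 and 2.59 CPM at 18 months, and at 0.634, 2.53 and 69.8 CPM at 24 months. Its rise of 4.89 on the log2 scale (SE 1.48, adjusted p = 0.0305) became a difference of 0.98 without replicate 3 (adjusted p = 0.498).

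Dnah9, another outer arm motor, was at 4.87 to 7.89 CPM at 2 months. At 18 months it was at 4.75, 5.74 and 13.1 CPM and at 24 months at 9.07, 16.3 and 97.2 CPM, so all 24 month samples were above all 2 month samples. The log2 rise was 2.73 (SE 0.723, adjusted p = 0.0187), and 1.06 without replicate 3 (adjusted p = 0.1002). Dnah3, Dnah6 and Dnah12, chains of the inner arms, reached 42.1, 120 and 80.9 CPM in replicate 3 and at most 3.12, 14.5 and 7.37 CPM elsewhere. Dnah7a, Dnah7b and Dnah7c are near-identical genes whose reads could be split between them. Dnah7b was at 6.13 to 8.46 CPM at 2 months and at 8.58, 20.3 and 31.0 CPM at 24 months.

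Dnah2 (ENSMUSG00000005237, chromosome 11 at 69420809 to 69549110, minus strand), an inner arm chain, had a shape of its own. Its 2 month samples lay at 15.5, 16.9, 12.9 and 12.8 CPM, its 18 month samples at 13.4, 7.47 and 36.3 CPM and its 24 month samples at 63.3, 44.5 and 66.9 CPM. Replicate 1, near the 2 month level for most members, was here almost level with replicate 3, and all 3 samples of 24 months were above all others. Dnah2 rose by 2.00 on the log2 scale from 2 to 24 months (SE 0.432, adjusted p = 0.00893) and by 1.90 without replicate 3 (SE 0.487, adjusted p = 0.0278). Against 18 months the difference was 1.63, with adjusted p = 0.443. The antisense gene Dnah2os overlaps its exons and stayed at or below 0.709 CPM in every sample.

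Dnah8, a chain best known from sperm tails, was at 15.6, 7.86, 16.6 and 14.3 CPM at 2 months and at 9.44, 19.1 and 30.2 CPM at 24 months, and its log2 difference of 0.53 did not pass (SE 0.375, adjusted p = 0.293). Dnah17, likewise known from sperm, was not highest in replicate 3. It was at 2.76 to 4.44 CPM at 2 months, at 2.59, 1.51 and 2.39 CPM at 18 months and at 3.51, 2.68 and 2.76 CPM at 24 months. From 2 to 18 months its log2 difference was -0.76 (SE 0.276, adjusted p = 0.1001), although the groups did not overlap. Dnah10 was at 3.05 to 7.65 CPM at 2 months, at 1.74, 1.14 and 4.64 CPM at 18 months, and at 5.15, 5.41 and 16.8 CPM at 24 months, with every 24 month sample above every 18 month sample. Its log2 difference between these 2 ages was 1.89 and did not pass (adjusted p = 0.448). Dnah14 did not exceed 0.611 CPM in any sample.

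Both intermediate chain genes rose at 24 months, beside 19.2% of all genes tested. Dnaic2 was at 0.853 to 1.71 CPM at 2 months, at 0.957, 1.96 and 4.44 CPM at 18 months and at 0.634, 4.98 and 32.2 CPM at 24 months. Its log2 rise was 3.38 (SE 1.02, adjusted p = 0.0299). Dnaic1 was at 0.379, 0.0932, 0.366 and 0.335 CPM at 2 months, at 0.213, 0.410 and 1.19 CPM at 18 months and at 0.224, 1.62 and 16.4 CPM at 24 months, a log2 rise of 4.37 (SE 1.20, adjusted p = 0.0216). The first 24 month sample lay within the 2 month range for Dnaic1 and below it for Dnaic2, and without replicate 3 neither passed (adjusted p = 0.169 for Dnaic1 and 0.259 for Dnaic2).

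The 4 assembly factors did not move together. Dnaaf1 was at 0.213 to 0.586 CPM at 2 months and at 0.448, 1.65 and 15.5 CPM at 24 months, with a log2 rise of 3.97 (SE 1.09, adjusted p = 0.0212) that did not pass without replicate 3 (1.53, adjusted p = 0.164). Dnaaf3 was at 1.17, 2.30, 3.66 and 1.07 CPM at 2 months, at 3.51, 2.30 and 4.77 CPM at 18 months and at 4.96, 6.03 and 13.6 CPM at 24 months. It rose by 2.00 (SE 0.509, adjusted p = 0.0161), and by 1.46 without replicate 3, where it did not pass (adjusted p = 0.0599). Its exons overlap those of Tnni3 on the same strand, so its reads cannot all be assigned with certainty. Dnaaf5 was the most abundant of the 4, at 27.2, 31.8, 31.6 and 28.2 CPM at 2 months, 24.1, 23.5 and 21.2 CPM at 18 months and 22.7, 19.1 and 28.7 CPM at 24 months. Every 18 month sample was below every 2 month sample. At 24 months replicate 3 was the one within the 2 month range, and Dnaaf5 fell only in the fit without it (log2 -0.49, SE 0.128, adjusted p = 0.0280), against -0.34 with it (adjusted p = 0.0892). Dnaaf2 stayed between 0.883 and 2.20 CPM in all samples.

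Among the 8 radial spoke genes, 3 rose from 2 to 24 months, beside 19.2% of all genes tested. Of these 1, Rsph4a, also did so without replicate 3, beside 11.9%. Rsph4a (ENSMUSG00000039552, chromosome 10 at 33905111 to 33916021, plus strand) encodes a protein of the spoke head. Its levels were 0.138, 0.342, 0.0812 and 0.152 CPM at 2 months, 0.390, 1.61 and 5.83 CPM at 18 months and 0.411, 6.004 and 56.7 CPM at 24 months. Every older sample was above every 2 month sample, the first of each age only just. The log2 rise to 24 months was 6.82 (SE 1.54, adjusted p = 0.0106), and 4.14 without replicate 3 (SE 1.15, adjusted p = 0.0365). To 18 months the difference was 3.76 and did not pass (SE 1.47, adjusted p = 0.122).

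Other spoke genes behaved differently. Rsph1, also of the spoke head, was at 3.99 to 5.41 CPM at 2 months, at 3.30, 10.6 and 4.64 CPM at 18 months and at 2.95, 9.11 and 36.1 CPM at 24 months, a log2 difference of 1.79 that did not pass (SE 0.697, adjusted p = 0.0717). Rsph3a and Rsph3b, near-identical genes of the spoke stalk between which reads may be split, were not raised in replicate 3. Rsph3b was at 11.3, 25.6, 14.2 and 15.9 CPM at 2 months, at 12.3, 17.8 and 14.9 CPM at 18 months and at 8.29, 15.1 and 11.1 CPM at 24 months. Rsph3a was at 5.79 to 9.91 CPM at 2 months and at 3.88, 5.66 and 5.03 CPM at 24 months, with no overlap, and its log2 difference of -0.61 did not pass (SE 0.251, adjusted p = 0.0834). Rsph6a, the spoke head gene of sperm, had between 0 and 2 counts in each sample.

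The 5 tektins differed among themselves. Tekt1 was at 0.284 to 0.622 CPM at 2 months, at 0.213, 1.36 and 2.45 CPM at 18 months and at 0.0746, 2.33 and 23.2 CPM at 24 months. It rose by 4.17 (SE 1.33, adjusted p = 0.0362). Tekt4 was at 0.244 to 0.404 CPM at 2 months and at 0.485, 2.68 and 19.1 CPM at 24 months, and it rose by 4.57 (SE 1.08, adjusted p = 0.0125). Tekt2 was at 0.569 to 0.974 CPM at 2 months, at 1.13, 1.77 and 1.33 CPM at 18 months and at 1.16, 1.37 and 4.04 CPM at 24 months, a rise of 1.55 (SE 0.441, adjusted p = 0.0242). All 6 older samples of Tekt2 were above its 2 month samples. Without replicate 3 none of the 3 passed (adjusted p 0.0537 to 0.352).

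Tekt5, a tektin of sperm tails, was called in both comparisons with 2 months, on few reads. It had 1, 0, 0 and 0 counts at 2 months, 3, 23 and 3 counts at 18 months and 3, 12 and 26 counts at 24 months. Per effective library size the summed counts were 45.9 times higher at 18 months (95% exact interval 7.60 to 1870) and 50.4 times higher at 24 months (8.55 to 2040), or 28.7 times without replicate 3 (4.42 to 1210), intervals that cover counting error only. Its highest level outside replicate 3 was in 18 month replicate 2, where 23 of the 29 counts of that age lay. The edgeR adjusted p was 0.0320 at 18 months and 0.0110 at 24 months, and 0.0410 at 24 months without replicate 3. Tekt3 had 46 counts over all samples, of which 36 were in 24 month replicate 3, and was not tested.

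**Figure D2:**
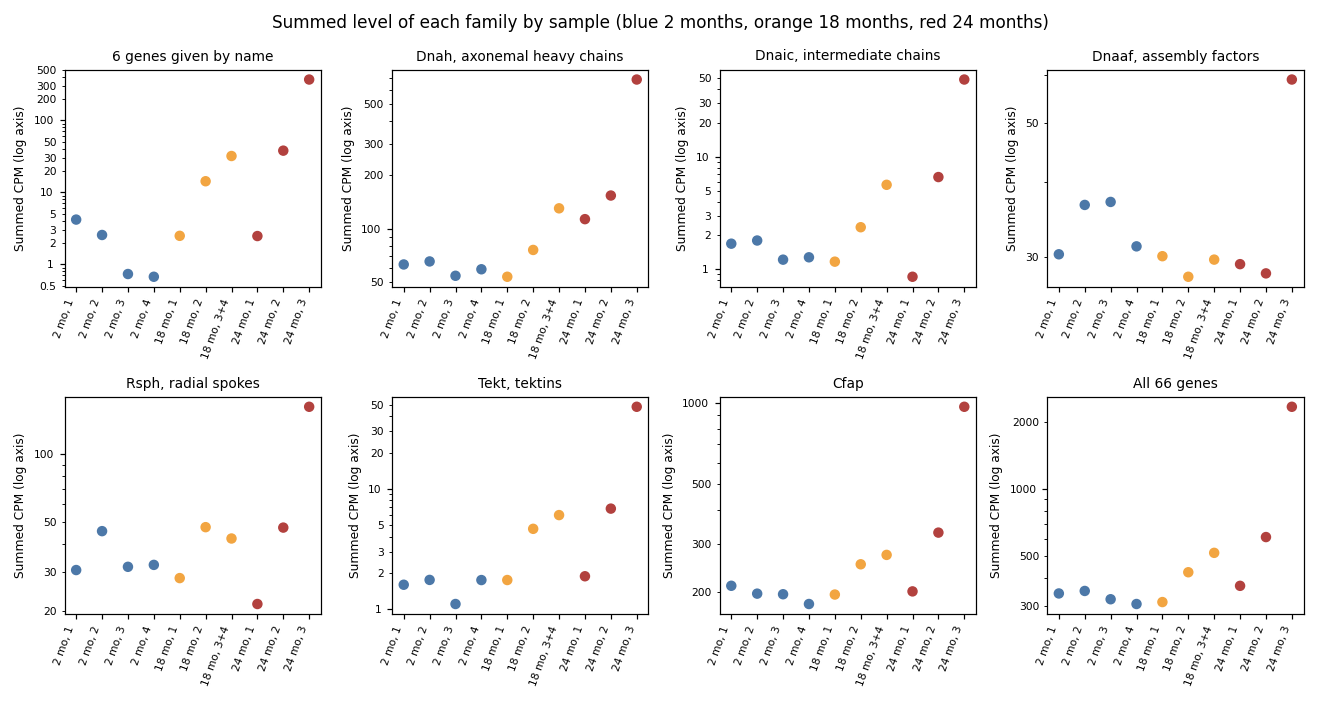
Summed CPM of each family and of all 66 genes (vertical, log axis, each panel with its own range) in each sample (horizontal), coloured by age. In every panel 24 month replicate 3 is highest, for all 66 genes at 2340 CPM, and the first sample of each older age is the lowest of its age in every panel but that of the assembly factors.

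The 26 Cfap genes summed to 180 to 210.3 CPM at 2 months, to 195, 253 and 274 CPM at 18 months and to 201, 331 and 964 CPM at 24 months. From 2 to 24 months 20 rose, beside 19.2% of all genes tested, and 1, Cfap36, fell, beside 15.8%. Without replicate 3 there were 3 that rose (Cfap161, Cfap44 and Cfap54), beside 11.9%, and none that fell, beside 8.69%. Cfap44, a tether of inner arm dynein, had the highest CPM of the family in replicate 3. Its levels were 2.55, 1.99, 1.26 and 1.00 CPM at 2 months, 2.37, 7.91 and 16.1 CPM at 18 months and 4.59, 19.4 and 142 CPM at 24 months. All 24 month samples lay above the 2 month samples. The rise was 5.02 (SE 1.09, adjusted p = 0.00904), and 2.84 without replicate 3 (SE 0.740, adjusted p = 0.0293).

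Cfap161, a protein inside the doublet microtubule, was at 0.690, 0.497, 0.325 and 0.365 CPM at 2 months, at 1.10, 4.16 and 2.32 CPM at 18 months and at 1.31, 4.27 and 19.8 CPM at 24 months. Every older sample was above every 2 month sample. It rose by 4.16 to 24 months (SE 0.852, adjusted p = 0.00744), and by 2.58 without replicate 3 (SE 0.600, adjusted p = 0.0202). Cfap65, known from sperm tails and the central pair, was at 0.965, 0.311, 0.0406 and 0 CPM at 2 months, at 0.602, 1.26 and 11.3 CPM at 18 months and at 0.709, 10.9 and 97.2 CPM at 24 months. Its rise of 6.76 (SE 1.77, adjusted p = 0.0178) did not pass without replicate 3 (4.15, SE 1.504, adjusted p = 0.0793).

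Cfap54 (ENSMUSG00000020014, chromosome 10 at 92775619 to 93081618, minus strand), a protein of the central pair, changed with age without standing out in replicate 3. It was at 10.1, 11.3, 11.5 and 11.7 CPM at 2 months (mean 11.2 ± 0.720, SD, n = 4), at 13.04, 41.0 and 37.2 CPM at 18 months (30.4 ± 15.2, n = 3) and at 33.6, 84.9 and 85.3 CPM at 24 months (67.9 ± 29.7, n = 3). No 2 month sample overlapped an older one, and 24 month replicates 2 and 3 were level. It rose by 1.45 to 18 months (SE 0.400, adjusted p = 0.0468) and by 2.61 to 24 months (SE 0.407, adjusted p = 0.00307), and by 2.43 to 24 months without replicate 3 (SE 0.443, adjusted p = 0.0104). It had the smallest adjusted p of all members at 24 months. The rise to 18 months rested on single samples: no member was called at 18 months when any 1 of the 2 month samples, 18 month replicate 2 or the summed 18 month sample was left out.

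The 3 Cfap genes with the highest mean CPM did not stand out in replicate 3. Cfap20, a protein of the inner doublet junction, was at 44.7 to 50.7 CPM at 2 months, at 52.1, 47.5 and 51.9 CPM at 18 months and at 49.0, 55.2 and 61.0 CPM at 24 months, a log2 difference of 0.19 to 24 months that did not pass (SE 0.0957, adjusted p = 0.147). Cfap97 lay between 32.9 and 44.2 CPM in all samples. Cfap36 was at 59.0, 53.3, 60.4 and 45.3 CPM at 2 months, at 53.5, 44.1 and 40.3 CPM at 18 months and at 41.4, 37.1 and 37.8 CPM at 24 months, so that the 24 month samples lay below all 2 month samples. It fell by 0.49 on the log2 scale (SE 0.131, adjusted p = 0.0190). It no longer passed without 24 month replicate 3 (adjusted p = 0.0549), without replicate 2 (adjusted p = 0.0657) and with library totals in place of TMM (adjusted p = 0.0502).

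Levels can be compared between genes only per length, and for this CPM was divided by the length of the merged exons in kilobases. At 2 months the highest mean levels were those of Cfap36 (19.9 CPM per kb), Cfap20 (10.9), Dnaaf5 (8.46), Cfap97 (7.99) and Rsph3b (5.37). These are genes that did not stand out in 24 month replicate 3. In that sample the order was another: Foxj1 led with 72.4 CPM per kb, followed by Dynlrb2 (59.7), Tmem212 (58.7), Ccdc153 (38.6), Cfap126 (26.5) and Rsph1 (26.3). In the mean of the other pair of 24 month samples Cfap36 (14.3 CPM per kb) and Cfap20 (11.7) still led, and Foxj1 stood at 4.26. No replicate stands behind the order within the single sample.

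The comparison of 18 with 2 months asked what differed before the last age. Of 63 members tested, 2 rose (Cfap54 and Tekt5), beside 6.04% of all genes tested, and none fell, beside 5.51%. A total of 8 members had an unadjusted p under 0.05, beside 29.9% of all genes. That number ranged from 5 to 24 over the fits that left out 1 sample each, and it was 24 without 24 month replicate 3, beside 31.1% of all genes, and 19 without 24 month replicate 1. The median log2 difference was 1.08, beside 0.01 over all genes tested. Groups did not overlap for 12 members higher and 3 lower at 18 months (Dnaaf5, Dnah17 and Dnah7c), beside 13.7% of all genes in each direction. Fitting without 24 month replicate 3, which shares the estimate of the spread, gave 4 that rose (Cfap161, Cfap54, Spag6l and Tekt5), beside 7.12% of all genes, and none that fell, beside 6.09%.

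At 24 against 2 months, 46 of the 63 tested members rose, beside 19.2% of all genes tested, and Cfap36 fell, beside 15.8%. The median log2 difference was 3.37, beside 0.03 over all genes. Without 24 month replicate 3, 6 rose (Cfap161, Cfap44, Cfap54, Dnah2, Rsph4a and Tekt5), beside 11.9% of all genes, and Dnaaf5 fell, beside 8.69%. The median was then 1.37, beside 0.03. Groups failed to overlap for 22 members higher (beside 21.7% of all genes) and 2 lower (Cfap36 and Rsph3a, beside 20.4%). Some members near 0 at 2 months, such as Tekt5 and Rsph14, passed the filter on low counts through older samples alone. With no filter 22 of 66 members rose, beside 3227 of 37758 genes.

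The count also moved when a 2 month sample was left out. It was 28, 32, 31 and 30 called members without 2 month replicates 1, 2, 3 and 4, against 47 with all samples. The 6 genes named for the fit without replicate 3 were called in each of the 10 fits that left out 1 sample, and the other 41 of the 47 lost their call in at least 1 of them. Tekt5, 1 of the 6, had 1 count in all at 2 months. It passed the filter on low counts through older samples alone, which favours a call as higher. Both comparisons share the 2 month samples, so they are not independent of each other.

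**Figure D3:**
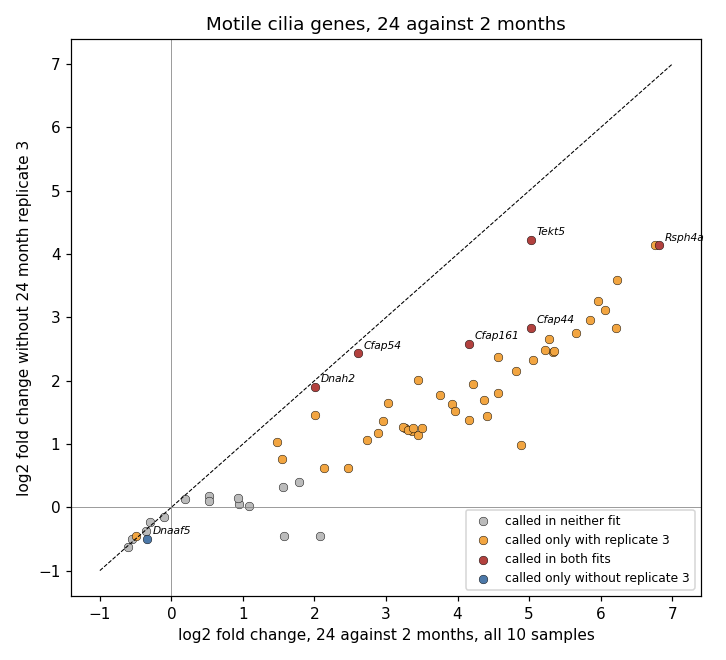
log2 fold change of each tested member from 2 to 24 months with all 10 samples (horizontal) and without 24 month replicate 3 (vertical), coloured by which fit called it, with the dashed line marking equal values. Most members lie below the line, Dnah2 and Cfap54 lie near it, and the 6 members called higher in both fits are named, as is Dnaaf5.

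Between 24 and 18 months no member was called, beside 0.00492% of all genes higher and 0% lower. DESeq2 and limma-voom also called none. In edgeR 22 of the 63 members had an unadjusted p under 0.05, beside 10.4% of all genes, and 1 did without replicate 3, beside 7.59%. The number was 9 with the replicate block, beside 1877 of 20331 genes. It also depended on other samples: it was 3 without 18 month replicate 1, 8 without 18 month replicate 2, 51 without 24 month replicate 1, 36 without 24 month replicate 2, and 14 and 13 without 2 month replicates 1 and 2. The median log2 difference was 2.24 with replicate 3 and 0.15 without it, beside 0.03 and 0.01 over all genes. With the replicate block it was 1.71, beside 0.02. In the fit without the block Dnah5 (log2 4.28) and Dnaic1 (3.40) had the largest differences, with edgeR adjusted p = 0.465 for both. With the block no member exceeded 3.07. Groups did not overlap for Dnaaf3, Dnah10, Dnah17 and Dnah2, higher at 24 months (beside 6.73% of all genes), and for Rsph3a, lower (beside 5.36%).

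Other axoneme genes outside the naming rule had the same shape. Of a list of 34, which holds dynein light chains, docking and ruler proteins and central pair proteins, 33 were tested. From 2 to 24 months 24 rose, beside 19.2% of all genes tested, and none fell, beside 15.8%. Without replicate 3, 5 rose, beside 11.9% of all genes. In 32 of the 34 the highest level was in replicate 3, beside 19.1% of all genes tested. In 21 it was at least 4 times that of any other sample, beside 1.63%. The list summed to 138 to 174 CPM at 2 months, to 173, 202 and 230.1 CPM at 18 months and to 171, 245 and 1056 CPM at 24 months. Tppp3, a microtubule-binding protein, was at 7.88 to 14.6 CPM at 2 months and at 21.3, 33.2 and 148 CPM at 24 months. Spag1, an assembly factor among the most abundant of the list, lay at 22.4 to 71.4 CPM at 2 months and at 29.8, 13.7 and 20.4 CPM at 24 months.

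Of 12 regulators of the multiciliated programme and of centriole amplification, 10 were tested. In 7 of the 12 the highest level was in replicate 3, beside 19.1% of all genes tested. In 3 it was at least 4 times that of any other sample, beside 1.63%. E2f4, which acts with Mcidas and was the most abundant, lay between 43.2 and 64.2 CPM and was lowest in replicate 3. Rfx3 was at 14.2 to 19.8 CPM at 2 months, at 15.6, 21.6 and 26.6 CPM at 18 months and at 18.9, 19.8 and 41.5 CPM at 24 months, so its first sample was the lowest of each older age and replicate 3 the highest of all, with a smaller range than that of Foxj1. Gmnc, Trp73 and Myb, which act upstream of Foxj1, were picked for mention after their values were seen. Gmnc was at or below 0.484 CPM in 9 samples and at 6.95 CPM in 24 month replicate 3. Trp73 reached 15.5 CPM there and at most 1.71 CPM elsewhere, and Myb 11.3 CPM and at most 1.34 CPM. Of the 10 tested, Trp73 and Myb rose from 2 to 24 months, beside 19.2% of all genes, and Ccno, Plk4 and E2f5 fell, beside 15.8%. Without replicate 3 Myb rose, beside 11.9%, and Ccno and Plk4 fell, beside 8.69%. Ccno, a cyclin-like protein of centriole amplification, was at 9.67 to 23.8 CPM at 2 months and at 2.65, 0.654 and 1.28 CPM at 24 months. Oocyte markers had the same direction, as given below, and their part in the fall of Ccno was not tested.

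The 23 intraflagellar transport genes, which carry cargo in primary as well as motile cilia, were also mostly highest in replicate 3 (19 of 23, beside 19.1% of all genes tested), but none was 4 times above the other samples. They summed to 795 to 874 CPM at 2 months, to 783, 930.4 and 845 CPM at 18 months and to 783, 876 and 1203 CPM at 24 months. From 2 to 24 months 3 rose (Ift57, Wdr19 and Ift172), beside 19.2% of all genes, and none fell, beside 15.8%. The median log2 difference was 0.30. Without replicate 3 none rose, beside 11.9% of all genes. Ift172 was at 57.8 to 63.9 CPM at 2 months and at 71.9, 66.6 and 101 CPM at 24 months.

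Some markers of other cells were also highest in replicate 3. The 10 genes listed as markers of secretory oviduct epithelium summed to 46.4 to 67.2 CPM at 2 months, to 96.9, 372 and 193 CPM at 18 months and to 89.98, 282 and 1113 CPM at 24 months. Cdh1, Epcam, Cldn3 and Cldn4 are general genes of epithelia, so the sum is not particular to oviduct. Emx2 and Sox17 already had means of 25.9 and 11.1 CPM at 2 months, where Ovgp1 had 1.97 CPM. From 2 to 24 months 8 of the 10 rose, beside 19.2% of all genes tested, and 4 did without replicate 3, beside 11.9%. Ovgp1, the oviduct glycoprotein, was at 1.55 to 2.39 CPM at 2 months, at 1.60, 3.03 and 11.9 CPM at 18 months and at 3.92, 4.84 and 381 CPM at 24 months. Pax8, Epcam and Cdh1 were also highest in replicate 3, at 69.5, 185 and 209 CPM, against at most 52.0, 83.0 and 79.8 CPM elsewhere. In 2 of the 10, Cldn4 and Ovgp1, replicate 3 was at least 4 times any other sample, beside 1.63% of all genes tested. In 8 of the 10 the highest level was in replicate 3, beside 19.1%. Pax2 and Sox17 were the exceptions: Pax2 was at 0.203 to 0.497 CPM at 2 months, highest in 18 month replicate 2 (2.30 CPM) and at its lowest, 0.0291 CPM, in 24 month replicate 3, and Sox17 was at 35.7 CPM in 18 month replicate 2 and 31.3 CPM in 24 month replicate 3. None of the 10 was at 0 there. In 18 month replicate 2 the oviduct list was above that of the summed 18 month sample while the sum of the 43 cilia genes was below it. The part of these markers in the result was not tested.

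Ovarian surface epithelium markers, 10 genes, summed to 138 to 178 CPM at 2 months, to 282, 703 and 401 CPM at 18 months and to 250.3, 421 and 764 CPM at 24 months. Of them 7 rose from 2 to 24 months, beside 19.2% of all genes tested, and 6 did without replicate 3, beside 11.9%. Upk3b, a uroplakin of mesothelium, was at 45.2 to 54.6 CPM at 2 months, at 98.01, 240 and 116 CPM at 18 months and at 66.7, 115 and 102 CPM at 24 months, so it was not highest in replicate 3. The keratins Krt7, Krt8, Krt18 and Krt19, named after their values were seen, were the 4 genes of the list that were highest there, at 82.5, 158, 175 and 142 CPM. None of the 10 was at least 4 times higher there than in any other sample. The 6 spermatid markers, fixed because several members are known from sperm, summed to 0.112 to 0.396 CPM over all samples, with Tnp1 at 0 in each, and none passed the filter. All 10 oocyte markers fell at both older ages, beside 5.51% of all genes tested at 18 months and 15.8% at 24 months. Their sums were 266 to 619 CPM at 2 months, 72.0, 33.7 and 43.6 CPM at 18 months and 44.6, 5.83 and 10.4 CPM at 24 months. Of 8 granulosa markers 4 fell to 24 months, beside 15.8% of all genes tested. Of 6 adipocyte markers, 3 of them tested, 2 rose, beside 19.2%. The adipocyte list was lower in replicate 3 (33.1 CPM) than in the other 24 month samples (95.99 and 65.7 CPM).

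**Figure D4:**
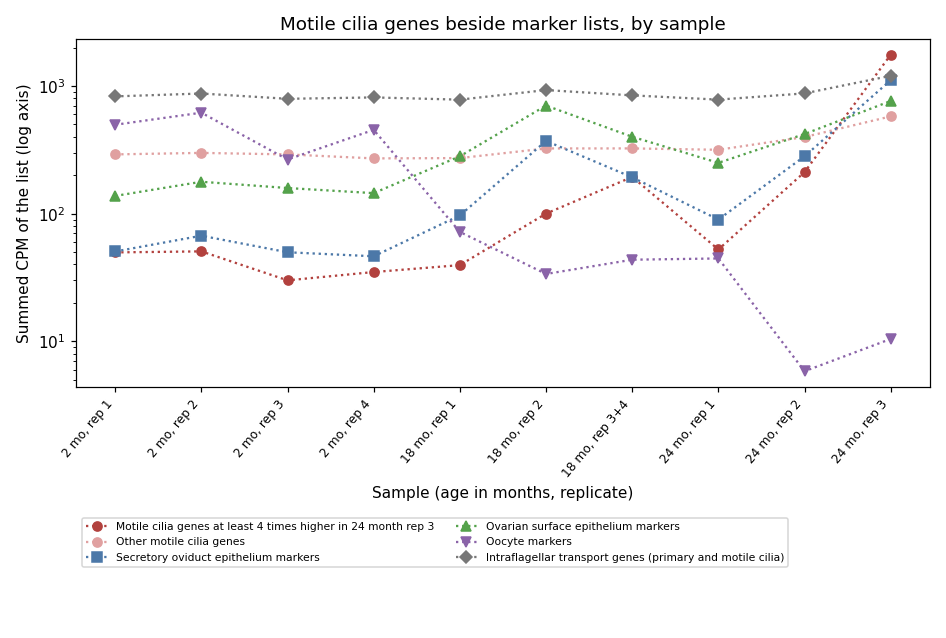
Summed CPM (vertical, log axis) of the 43 motile cilia genes at least 4 times higher in 24 month replicate 3, of the other 23, and of 4 marker lists, in each sample (horizontal), with dotted lines joining points for reading only. The 43 genes and the genes listed as oviduct markers, which include general genes of epithelia, are both highest in 24 month replicate 3, at 1761 and 1113 CPM. The transport genes stay between 783 and 1203 CPM.

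Some values are uncertain through the counting. Exons of 28 of the 66 members overlap an exon on the opposite strand and those of 4 overlap one on the same strand, and whether the counting used strand is not given in the sources used here. Crnkl1, on the other strand of Cfap61 and taken as an example after its values were seen, was at 44.9 CPM in 24 month replicate 3 and at 34.5 to 66.7 CPM elsewhere, while Cfap61 was at 42.5 CPM there and at most 4.38 CPM elsewhere. Some other opposite-strand neighbours were highest in replicate 3, as their members were. Gm20560, beside Dnah6, was at 1.95 CPM there and at most 0.596 CPM elsewhere. Enho, beside Dnaic1, was at 6.86 CPM there and at most 5.29 CPM elsewhere. Whether reads were shared was not tested.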

How the data were processed

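Whole mouse ovary RNA was sequenced in 11 libraries using an Illumina kit that keeps strand, per the labels' protocols. The deposited file gives each library's raw counts of reads by gene. The submitters' processing notes name FastQC, cutadapt, STAR, HTSeq and mm10, without versions, and the sources used here give no annotation or strand setting. Samples were grouped by age from their titles. The members, gene lists and alternatives were chosen with earlier results of these data known.

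Replicates 3 and 4 at 18 months were summed. Genes passing edgeR's filterByExpr (20331, with 63 of the 66 members, not Mcidas, Rsph6a or Tekt3) were tested with edgeR 4.0.16 (R 4.3.3): TMM scaling, the quasi-likelihood F-test with robust estimation, two-sided, 3 ages in 1 model, and Benjamini-Hochberg adjustment over all genes tested at 0.05. Residual degrees of freedom numbered 7, and the common coefficient of variation was 0.32. Every adjusted p in the text is from this test unless another tool is named, and the SE is the log2 fold change over the square root of F. The test was checked on simulated data. Exon lengths came from GENCODE M21, where 61 of the 66 members had the same coordinates, and promoters from RefSeq (GRCm38.p6). Total counts, 5231724 to 33407509 per library, set the precision of genes with few counts.

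Named genes are the 6 given by name, the 3 most abundant members per family, up to 6 called members per direction and comparison by adjusted p, the 2 highest and 2 lowest fold changes per comparison, with and without 24 month replicate 3, and up to 3 genes per list by mean level. Other genes were chosen after their values were seen. The alternatives were DESeq2 size factors, library totals, no or a stricter filter, DESeq2 1.42.0, limma-voom (limma 3.58.1) with quality weights, only the ages compared, 11 separate libraries, a replicate block and leaving out each sample. Same-numbered samples of 18 and 24 months deviated together (correlations 0.389, 0.280 and 0.147, beside -0.327 to 0.135 for differing numbers). Those numbers were treated as pairing for 24 against 18 months. Its counts and median with the replicate block stand beside the main ones. The block was fitted over all ages. The 2 month samples, whose numbers were not taken as pairing, thus also set its terms and the spread. Its values for single genes are from the fit without the block. The test above has no block. The labels do not say what same-numbered samples share.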

Additional observations from a re-analysis of the deposited data

Results flagged for a closer look

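In the group of 4 samples at 2 months, 3 of the motile cilia genes had 1 sample far from the others, past the 95% critical value of Dixon's ratio of gap to range. Chance flags about 1 in 20 groups, and 33 genes were looked at. Cfap97 was at 32.9 CPM in 2 month replicate 3, below the other samples of that age. Dnaic1 was at 0.0932 CPM in replicate 2, also below the others. Tekt5 was at 0.0345 CPM in replicate 1, from a single count, with none in the others. Groups of 3 samples, and so 24 month replicate 3, were not tested in this way.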

How the results depend on the processing

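For 18 against 2 months the 2 called members became 1 without a filter, with at least 1 CPM in 3 samples and with limma-voom, 6 with DESeq2 and with only the ages compared, and 0 with a replicate block. Leaving out each sample in turn gave 0 to 4. For 24 against 2 months the 47 called members became 23 without a filter, where 37758 genes were tested, and 10 with the replicate block (9 of 63 members higher and 1 lower, beside 2718 and 2411 of 20331 genes, with Cfap161 at adjusted p 0.0564 and Cfap44 at 0.06), and leaving out each sample gave 7 to 52. For 24 against 18 months every alternative gave 0, the replicate block included, and leaving out each sample gave 0 to 0. The replicate numbers of the 2 month samples share no more than a number with those of the older ages (correlations -0.113 to 0.0628). The cause of these moves was not tested. The sign reversed for Cfap97 at 24 against 2 months with library totals (0.0701), for Spag6l at 24 against 18 months without 24 month replicate 3 (-0.42, range over samples left out -0.42 to 3.1), and for Tekt5 at 24 against 18 months without 18 month replicate 1 (-0.26), without the summed 18 month sample (-0.0395) and without 24 month replicate 3 (-0.61, range -0.61 to 1.48). None of these passed the test. Of the other values for 32 named genes, 745 kept their direction and side of the threshold, 88 no longer passed and 9 newly passed. With library totals alone the median log2 difference of all genes was 0.10, 0.22 and 0.12 in the 3 comparisons, against 0.01, 0.03 and 0.03 with TMM. Library totals gave 1326 genes higher and 662 lower at 18 months (1228 and 1121 with TMM) and 5048 and 1869 at 24 months (3906 and 3214). Members under about 1 CPM rest on few counts, and with 3 or 4 samples an age a single sample can carry a call.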
